A study of Homo sapiens with 6 samples.

Results

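The mRNA of 10 splicing regulators, NOVA2 and 9 other RNA-binding proteins whose activity differs between tissues, was examined in Meg-01 cells with and without propionate (C3). The 10 genes were chosen by symbol from the 58735 Ensembl genes of the count table, all 10 symbols were found there, and 7 of them had enough reads to be compared. NOVA2 was chosen because earlier results of the same libraries showed its increase after C3 treatment, and the other genes were added with those results known. Their changes are therefore given as a description, without p-values. Where the text says that one of them passed the gates defined below, this places its value and is no independent test. The question asked of them was whether NOVA2 was higher alone. It was not, since SRRM3 and RBFOX3 were higher too, although RBFOX3 passed the gates in only 8 of 12 alternative settings and not with DESeq2. RBFOX2, CELF1, PTBP1 and PTBP2 had overlapping libraries, and NOVA1, ELAVL3 and ESRP2 had almost no reads.

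Meg-01 is an established human megakaryoblastic cell line, and C3 is a short-chain fatty acid that gut bacteria make from fibre. RNAseq was performed on 3 libraries of untreated cells (control) and 3 libraries of cells given 500 µM sodium propionate for 48 h, although the methods name 24 h as well as 48 h of incubation before RNA extraction. The study calls its libraries technical replicates. The tests below therefore measure only the spread between these libraries, which may be smaller than that between separate cultures. Total counts were between 16159449 and 22821722 per library. Over all 15078 genes tested, 5.05% were higher and 1.47% lower after C3 treatment by the gates of the study (more than 30% apart, with p below 0.01 after adjustment), applied here to edgeR's quasi-likelihood test, and the median log2 fold change was 0.0021. Of these calls 77.4% were higher, and 91.1% when libraries were scaled by their total alone. Before adjustment, 16.8% of all tested genes were higher and 15.3% lower at p below 0.05, and 50.4% had a log2 fold change above 0.

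In most tissues, splicing factors of wide expression decide which exons enter an mRNA, and a smaller number of tissue-restricted RNA-binding proteins change that choice in neurons, muscle or epithelia. NOVA1 and NOVA2 bind clusters of UCAU-like tetramers in neuronal pre-mRNA, and NOVA2 is also known from endothelial cells. RBFOX proteins bind the letters GCAUG, SRRM3 and its relative SRRM4 promote the inclusion of very short neuronal exons, and PTBP1 represses many neuronal exons in non-neuronal cells, where its relative PTBP2 is usually low. The deposited values are read counts per gene, so exon inclusion itself was not analysed here.

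NOVA2 and SRRM3, which had the largest differences among the 10 genes, have a single start each in the RefSeq promoter table (GRCh38.p14), and their upstream sequences are shown with that of NOVA1, the near-silent relative of NOVA2, for comparison. Each is read 5′ to 3′ on the strand of its gene and ends at the annotated start, and capitals mark GC boxes, the letters GGGCGG or its complement CCGCCC. For SRRM3 (chr7:76201646-76201895, forward strand) and NOVA1 (chr14:26598034-26598283, reverse strand, the outermost of 3 listed starts) all 250 bases before the start are shown. For NOVA2, a GENCODE transcript begins 179 bases before the RefSeq start, so the 71 bases before that transcript are shown (chr19:45974045-45974115, reverse strand).
NOVA2: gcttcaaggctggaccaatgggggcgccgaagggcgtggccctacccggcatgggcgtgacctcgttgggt
SRRM3: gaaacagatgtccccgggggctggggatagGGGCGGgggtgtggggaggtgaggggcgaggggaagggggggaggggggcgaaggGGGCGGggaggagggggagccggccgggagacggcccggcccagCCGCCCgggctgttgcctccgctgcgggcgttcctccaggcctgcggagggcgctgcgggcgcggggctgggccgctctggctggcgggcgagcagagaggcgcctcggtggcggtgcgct
NOVA1: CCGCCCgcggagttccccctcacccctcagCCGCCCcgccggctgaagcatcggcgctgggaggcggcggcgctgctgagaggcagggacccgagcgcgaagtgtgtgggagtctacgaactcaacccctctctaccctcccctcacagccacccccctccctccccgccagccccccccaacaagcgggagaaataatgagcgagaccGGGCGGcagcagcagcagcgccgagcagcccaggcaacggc
Counted over all 250 bases before the RefSeq start, GC boxes numbered 2 in NOVA2, both within the bases not shown, 3 in SRRM3 and 3 in NOVA1, and 42.6% of the 35116 stretches of that length in the table hold at least 1. The share of G and C was 78.0% for NOVA2, 79.2% for SRRM3 and 71.6% for NOVA1, against a median of 58.0% over all stretches. CpG numbered 27, 26 and 23, against a median of 11, and 82.3%, 80.4% and 74.2% of all stretches have fewer. At the other 2 listed NOVA1 starts, GC was 35.6% and 44.8% and CpG numbered 2 and 1, below both medians, and the libraries do not show which NOVA1 start was used. The 2 parts of the REST binding motif searched, CAGCACC and GGACAG on either strand, were in none of the 3, and 6.16% and 17.2% of all stretches hold them. Only exact matches within these 250 bases were searched, so sites elsewhere were not examined. RBFOX3 has 12 listed starts, so none of its sequences is shown, and GGACAG was in 5 of its 12 stretches and CAGCACC in 0. PTBP1, whose libraries overlapped between groups, had G and C shares of 69.2% and 82.4% and 26 and 50 CpG at its 2 listed starts, and CELF1 reached 76.8% and 38 CpG at 1 of 5, so these features were not particular to the higher genes. The first of these PTBP1 stretches also held 1 CAGCACC.

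NOVA2 (ENSG00000104967; GRCh38 chromosome 19, 45933734 to 45974044, reverse strand) shares no exon bases with another annotated gene. Its read counts were 42, 53 and 40 in the control libraries and 231, 285 and 372 in the C3 libraries (replicates 1 to 3). Divided by the effective library size, these are normalised read counts of 41.1, 56.2 and 47.8 against 263, 273 and 292. The groups were far apart, and the lowest C3 library was above the highest control library by more than the whole spread within either group. The log2 fold change was 2.52 ± 0.15 (SE), a 5.72-fold difference. In bulk RNA, more cells with a transcript and more transcript per cell cannot be told apart, here and below. Its relative NOVA1 (ENSG00000139910, chromosome 14, 26443090 to 26598033, reverse strand), which shares the RNA-binding domains, had 1 read in all 3 control libraries together and 2 in all 3 C3 libraries. A gene with no reads may still have a level of up to 3 counts over the control libraries, or 0.056 CPM (counts scaled to the library total). With 1 and 2 reads NOVA1 was near such a floor, and no change could be measured at this depth.

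SRRM3 (ENSG00000177679; chromosome 7, 76201896 to 76287288, forward strand) encodes the serine/arginine repetitive matrix protein that acts on short neuronal exons. Its normalised read counts were 186, 213 and 167 in control cells and 408, 389 and 387 after C3 treatment. The C3 libraries lay within a narrow range, and each had more than any control library. The log2 fold change was 1.06 ± 0.11 (SE), a 2.08-fold difference. By log2 fold change SRRM3 ranked 294 and NOVA2 14 among all 15078 tested genes. SRRM4, the better-known neuronal relative, had 0 reads in all 6 libraries. SRRM1 and SRRM2, the relatives that belong to the general splicing machinery, are described with the other relatives.

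RBFOX3 (ENSG00000167281; chromosome 17, 79089345 to 79611051, reverse strand) is known to histologists as the neuronal nuclear antigen NeuN. Its read counts were low, with 58, 54 and 61 in the control libraries and 88, 97 and 140 in the C3 libraries. After normalisation they were 56.8, 57.3 and 72.8 against 100.2, 92.8 and 109.8. The groups did not overlap, but control replicate 3 lay closer to the C3 libraries than the other control libraries did. The log2 fold change was 0.71 ± 0.18 (SE), a 1.63-fold difference and the smallest of the 3. Of the genes past the gates RBFOX3 was the nearest to them, with CELF1 (0.085) the highest below the fold change gate of 0.38 on the log2 scale. RBFOX3 missed the gates with DESeq2 and without control replicate 1, without control replicate 2 and without C3 replicate 3 (log2 fold changes of 0.70, 0.66, 0.65 and 0.64).

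RBFOX2 (ENSG00000100320, chromosome 22), the RBFOX protein of many non-neuronal tissues, had 1458, 1341 and 1264 normalised reads in control cells and 1390, 1445 and 1426 after C3 treatment. The C3 values fell inside the control range, with a log2 fold change of 0.068 ± 0.067 (SE). Per exon length, RBFOX3 was at 5.60% of RBFOX2 in control cells and at 8.67% after C3 treatment, so RBFOX2 remained the main RBFOX transcript of these cells. RBFOX1, the third gene of the family, had between 0 and 5 reads per library.

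PTBP1 (ENSG00000011304, chromosome 19) was the most abundant of the 10 genes, also per exon length, with 14944, 15024 and 14182 normalised reads in control cells and 14331, 13870 and 13919 after C3 treatment. The groups overlapped, and the log2 fold change of -0.068 ± 0.062 (SE) became 0.0051 when libraries were scaled by their total alone, so its direction was not settled. PTBP2 (ENSG00000117569, chromosome 1), the form that replaces PTBP1 during neuronal differentiation, had 145.0, 144 and 128 normalised reads against 137, 154 and 122. Its log2 fold change was -0.022 ± 0.14 (SE), and the C3 libraries spanned the range of the control libraries. Per exon length, PTBP2 was at 0.353% of PTBP1 in control cells and at 0.365% after C3 treatment. The long merged exon model of PTBP2 (20122 bases, against 7521 for PTBP1) lowers both shares. The log2 ratio of PTBP2 to PTBP1 was -8.15 ± 0.058 without and -8.10 ± 0.17 with C3 (SD, n = 3), a difference within the spread of the C3 libraries.

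CELF1 (ENSG00000149187, chromosome 11), a CUG-binding splicing and mRNA decay factor, had 1887, 1800 and 1655 normalised reads in control cells and 1842, 1931 and 1895 after C3 treatment, and the groups overlapped. CELF1 had a log2 fold change of 0.085 ± 0.065 (SE), and 2.22% of its exon bases lie opposite genes of the other strand. ELAVL3 (ENSG00000196361, chromosome 19), a neuronal RNA-binding protein also called HuC, had no read in any library, which allows up to 0.056 CPM over the control libraries and 0.052 over the C3 libraries, and 5.38% of its exon bases are shared with another gene model. ESRP2 (ENSG00000103067, chromosome 16), a regulator of epithelial exons, had 2 reads over the control libraries and 4 over the C3 libraries, and all 4 were in C3 replicate 1. These limits cover counting error only, and PCR copies are not independent molecules.

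**Figure D1:**
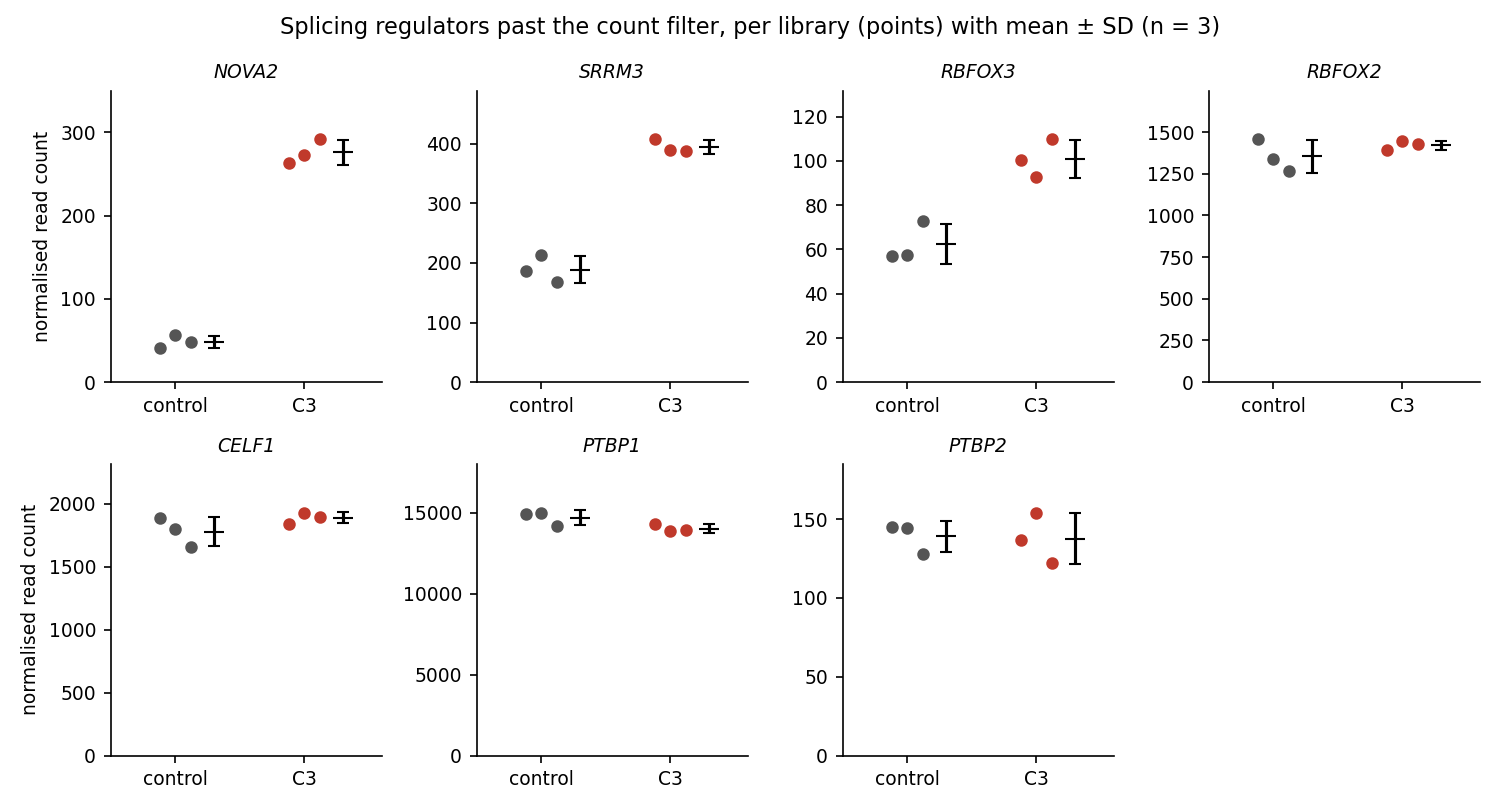
Normalised read count (y axis, from 0) of each of the 7 genes with enough reads, by group (x axis); points are single libraries, and the bar beside them is the mean with its SD (n = 3). The C3 libraries of NOVA2, SRRM3 and RBFOX3 lie above all control libraries, and the groups of the other 4 genes overlap.

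Of the 7 genes, 3 passed both gates upwards and 0 downwards, where 5.05% and 1.47% of all tested genes did (6.52% in either direction), and 2 passed upwards with DESeq2. The groups did not overlap in the same 3 genes, with C3 libraries above control libraries, which held for 17.5% of all tested genes. As the genes were chosen on this comparison, no more is read from these shares. NOVA2 and SRRM3 passed both gates in all 12 alternative settings tried and RBFOX3 in 8 of them. The other 4 genes passed in none, with log2 fold changes between -0.11 (PTBP2) and 0.16 (CELF1).

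Levels were compared between genes as RPKM, counts scaled as CPM on the effective library size and divided by the merged exon length in kilobases. In control cells the order was PTBP1 (105 ± 3.32), CELF1 (9.06 ± 0.60), RBFOX2 (5.89 ± 0.42), SRRM3 (1.47 ± 0.18), PTBP2 (0.371 ± 0.026), RBFOX3 (0.331 ± 0.049) and NOVA2 (0.283 ± 0.044; SD, n = 3). The libraries of PTBP2 and RBFOX3 overlapped, as did those of RBFOX3 and NOVA2, so the order of these 3 genes is not settled, and all other neighbours among these 7 genes were apart. After C3 treatment NOVA2 (1.61 ± 0.086 RPKM) stood above RBFOX3 (0.537 ± 0.045) and PTBP2 (0.367 ± 0.042; SD, n = 3), with no overlap between neighbours. SRRM3 reached 3.08 ± 0.088 RPKM and stayed next below RBFOX2, with NOVA2 now next below SRRM3. NOVA2 was still at 1.61% of PTBP1 after C3 treatment, from 0.267% in control cells. The log2 ratio of SRRM3 to NOVA2 per exon length moved from 2.39 ± 0.19 to 0.93 ± 0.11 (SD, n = 3), without overlap of the groups. The merged exon models are long for genes with many annotated transcripts (20122 bases for PTBP2), which lowers their RPKM.

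**Figure D2:**
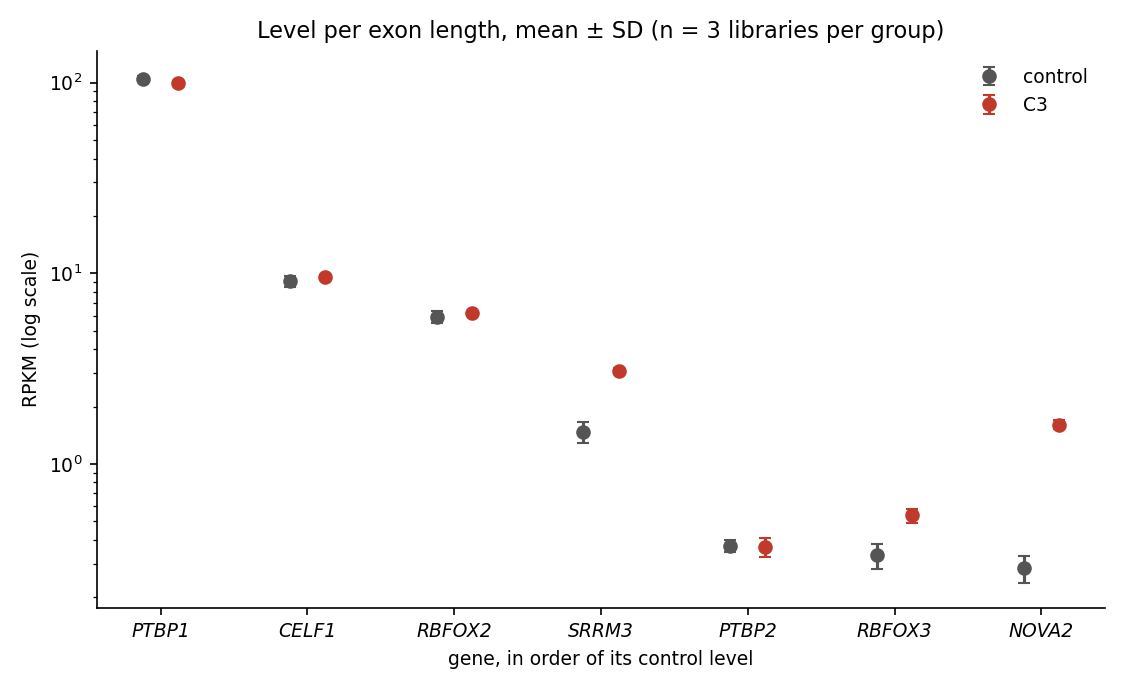
RPKM on a log scale (y axis) of the 7 genes in order of their control level (x axis), as mean ± SD of 3 libraries for control (grey) and C3 (red). NOVA2 moves from the lowest mean (0.283, its libraries overlapping those of RBFOX3) to 1.61, above PTBP2 and RBFOX3, while PTBP1, CELF1 and RBFOX2 keep their levels within the overlap of their libraries.

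Over the 6 libraries, the log2 CPM of SRRM3 had a Pearson correlation of 0.986 with that of NOVA2, RBFOX3 one of 0.931, CELF1 0.573, RBFOX2 0.452, PTBP2 -0.097 and PTBP1 -0.740. With 2 groups of 3, such values mainly describe the difference between groups. Among all genes with a mean normalised read count of at least 50, the 5 most like NOVA2 by this measure were EXOC6B (0.9995), DSP (0.998), TTN (0.998), HIP1R (0.996) and FOXJ3 (0.996). DSP, the gene of the junction protein desmoplakin, had 125, 152 and 135 normalised reads in control cells and 291, 316 and 321 after C3 treatment. TTN, the gene of the muscle protein titin, had 78.4, 91.2 and 84.8 against 149.1, 150.3 and 149.0. EXOC6B, a component of the exocyst, HIP1R, an endocytic adaptor, and FOXJ3, a forkhead transcription factor, had log2 fold changes of 0.57, 0.77 and 0.16, and FOXJ3 did not pass the fold change gate.

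The protein-coding genes within 200 kb of NOVA2 were compared with it, as their position was not part of the choice. Of 15 such genes, 9 were tested, and 0 were higher and 0 lower by edgeR's quasi-likelihood test, DESeq2 or limma-voom (5.05% and 1.47% of all tested genes by edgeR). At p below 0.05 before adjustment 2 were higher and 1 lower, where 16.8% and 15.3% of all tested genes were. Their median log2 fold change was -0.078, against 0.0021 over all tested genes. The nearest tested genes, CCDC61 at 21.4 kb beyond the 5′ end and MYPOP at 31.1 kb beyond the 3′ end, had log2 fold changes of -0.078 ± 0.093 (SE) and -0.096 ± 0.085 (SE). FOXA3, a forkhead transcription factor at 59.9 kb, had the highest value of 0.99 ± 0.37 (SE; edgeR adjusted p = 0.056), on 15.7, 8.48 and 11.9 normalised reads in control and 30.7, 19.1 and 23.5 in C3 libraries. IRF2BP1 at 47.6 kb had the lowest, -0.22 ± 0.066 (SE; edgeR adjusted p = 0.019), short of both gates. SYMPK, a polyadenylation factor gene, stood at 0.029 and DMPK, a protein kinase gene, at 0.37 ± 0.14 (SE). NANOS2, PGLYRP1, IGFL3, IGFL4, RSPH6A and an unnamed gene model had too few reads to be tested.

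**Figure D3:**
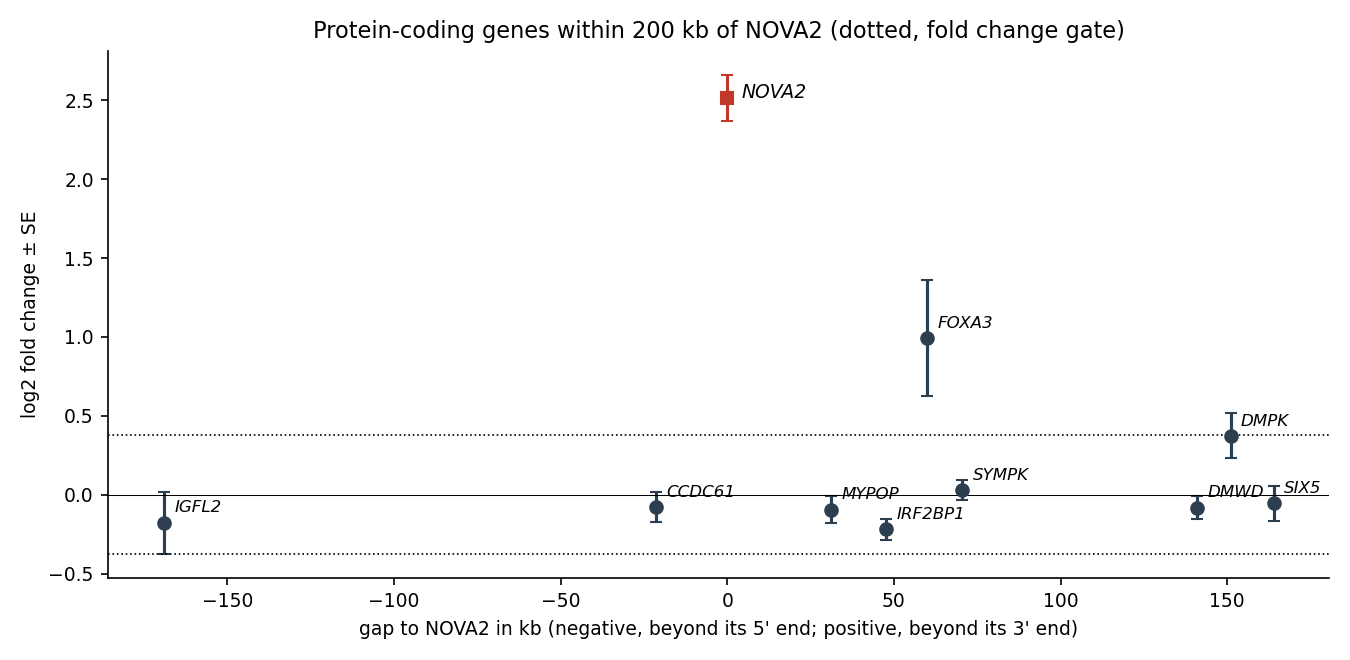
Log2 fold change with its standard error (y axis) of NOVA2 (square) and the 9 tested genes around it, against the gap to NOVA2 in kb (x axis, negative beyond its 5′ end, positive beyond its 3′ end). The neighbours lie between -0.22 (IRF2BP1) and 0.99 (FOXA3), below the 2.52 of NOVA2, and the dotted lines mark the fold change gate.

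A list of 14 further genes of the RBFOX, PTBP, CELF, ELAVL, SRRM and ESRP families was written from general knowledge and may not be complete. Of these 14 genes, 7 were tested. By edgeR's quasi-likelihood test, DESeq2 or limma-voom 0 were higher and 0 lower by both gates (5.05% and 1.47% of all tested genes by edgeR). At p below 0.05 before adjustment 4 were higher and 1 lower (16.8% and 15.3% of all tested genes). Their median log2 fold change was 0.18, with 6 of 7 values above 0, against 50.4% of all tested genes. ELAVL4, the neuronal HuD, had the highest value of 0.84 ± 0.32 (SE; edgeR adjusted p = 0.070), with 17, 19 and 11 reads in control and 22, 40 and 34 in C3 libraries. Its groups did not overlap after normalisation either. ELAVL2, another neuronal member, had a log2 fold change of 0.50 ± 0.32 (SE; edgeR adjusted p = 0.30). CELF2, a CELF protein of blood and brain, had 0.18 ± 0.061 (SE; edgeR adjusted p = 0.035) and SRRM1 0.21 ± 0.070 (SE; edgeR adjusted p = 0.033), both short of the gates. PTBP3, the PTBP form of blood cells, had 0.16 ± 0.072 (SE) and SRRM2 0.0012 ± 0.069 (SE). ELAVL1, the widely expressed HuR, had the lowest value of -0.15 ± 0.061 (SE; edgeR adjusted p = 0.096), with C3 libraries below control libraries.

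The rest of the family list was barely expressed. CELF3 had 1 read in all 6 libraries, CELF4 between 0 and 13 per library, CELF5 between 2 and 9 and ESRP1 between 0 and 6. CELF6 had 0 reads, but 93.3% of its exon bases are shared with other gene models of the same strand, and reads there may not have been assigned to it.

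The lists below were also chosen with earlier results of these data known, so the adjusted p-values of their genes, taken over all tested genes, are not independent evidence. A list of 32 other tissue-regulated splicing factors, of which 30 were tested, had 3 genes higher and 1 lower by both gates (10% and 3.33%, against 5.05% and 1.47% of all tested genes). Its median log2 fold change was -0.0044, and 26 of the 30 genes passed the gates in neither direction. MSI1 (ENSG00000135097, chromosome 12), Musashi 1, an RNA-binding protein of neural stem cells, rose from 41.1, 38.2 and 44.2 normalised reads to 157, 95.7 and 134. Its log2 fold change was 1.64 ± 0.20 (SE; edgeR adjusted p = 1.5e-06), between those of NOVA2 and SRRM3. RBM20 (ENSG00000203867, chromosome 10), known for the splicing of titin in heart muscle, rose from 152, 129 and 109.9 to 188, 201 and 209 normalised reads. Its log2 fold change was 0.61 ± 0.13 (SE; edgeR adjusted p = 0.0018). RBPMS (ENSG00000157110, chromosome 8), a splicing factor of smooth muscle, rose from 261, 221 and 244 to 339, 323 and 327, with a log2 fold change of 0.45 ± 0.10 (SE; edgeR adjusted p = 0.0025). MBNL3 (ENSG00000076770, chromosome X), a muscleblind protein, fell from 721, 849 and 695 to 522, 572 and 592, with a log2 fold change of -0.42 ± 0.083 (SE; edgeR adjusted p = 0.00068).

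MSI1 kept its call with every library left out, with log2 fold changes of 1.49 to 1.82. RBM20 lost it without control replicate 2 (0.60), without control replicate 3 (0.51) and without C3 replicate 3 (0.57), and RBPMS lost it without control replicate 2 (0.38) and without C3 replicate 3 (0.45). MBNL3 lost its call without control replicate 2 (-0.33), without C3 replicate 1 (-0.37) and with scaling by library size alone (-0.35). Relatives of the called genes are given for comparison. MSI2, the Musashi protein of blood progenitors, had a log2 fold change of -0.020 ± 0.062 (SE), MBNL1 one of 0.054 and MBNL2 one of 0.070. RBPMS2 stood at 0.42 (adjusted p = 0.012, edgeR), above the fold change gate and short of the p-value gate. QKI, a factor of glia and vessels, was at -0.00021 ± 0.066 (SE).

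**Figure D4:**
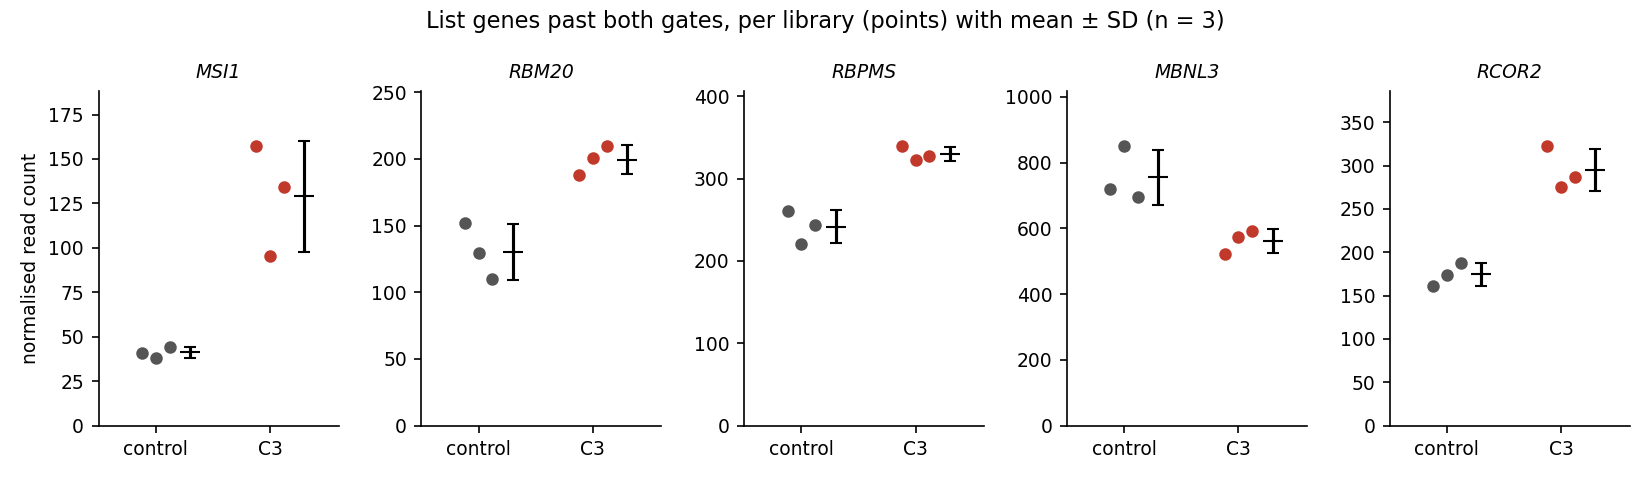
Normalised read count (y axis, from 0) by group (x axis) of the 5 genes past both gates in the lists of other tissue-regulated splicing factors and of the REST complex; points are libraries and bars the mean ± SD (n = 3). MSI1, RBM20, RBPMS and RCOR2 have all C3 libraries above the control libraries, MBNL3 has them below, and MSI1 has a C3 range of 95.7 to 157.

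No tested SR protein, hnRNP or core spliceosome gene passed both gates, which 5.05% of all tested genes passed upwards and 1.47% downwards. Of 34 SR proteins and hnRNPs, which act on exons in all cells, 33 were tested and 0 were higher and 0 lower by both gates in edgeR's test, DESeq2 or limma-voom, with 3 higher and 6 lower at p below 0.05 before adjustment, against 16.8% and 15.3% of all tested genes. Their log2 fold changes lay between -0.24 (SRSF1) and 0.19 (SRSF4), with a median of -0.027. All 45 core spliceosome genes listed were tested, again with 0 higher and 0 lower by both gates with each of these tools and with 3 higher and 12 lower at p below 0.05 before adjustment (16.8% and 15.3% of all tested genes). The median of the 45 log2 fold changes was -0.079, with 9 above 0, against 50.4% of all tested genes. By the p-value gate alone 3 were lower (4.06% of all tested genes were lower and 6.51% higher by that gate). SF3B5 had a log2 fold change of -0.32 (adjusted p = 0.0013), SF3B3 one of -0.28 (adjusted p = 0.0024) and SF3B4 one of -0.25 (adjusted p = 0.0064, edgeR's test). Of the other listed genes of the same complex, SF3B1 had -0.085, SF3B2 -0.041 and SF3B6 -0.18, and none passed that gate. The SF3B genes are outside the rule for naming genes and were singled out after their values were seen. Without C3 replicate 1, 1 core spliceosome gene, SF3B5, was lower by both gates.

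**Figure D5:**
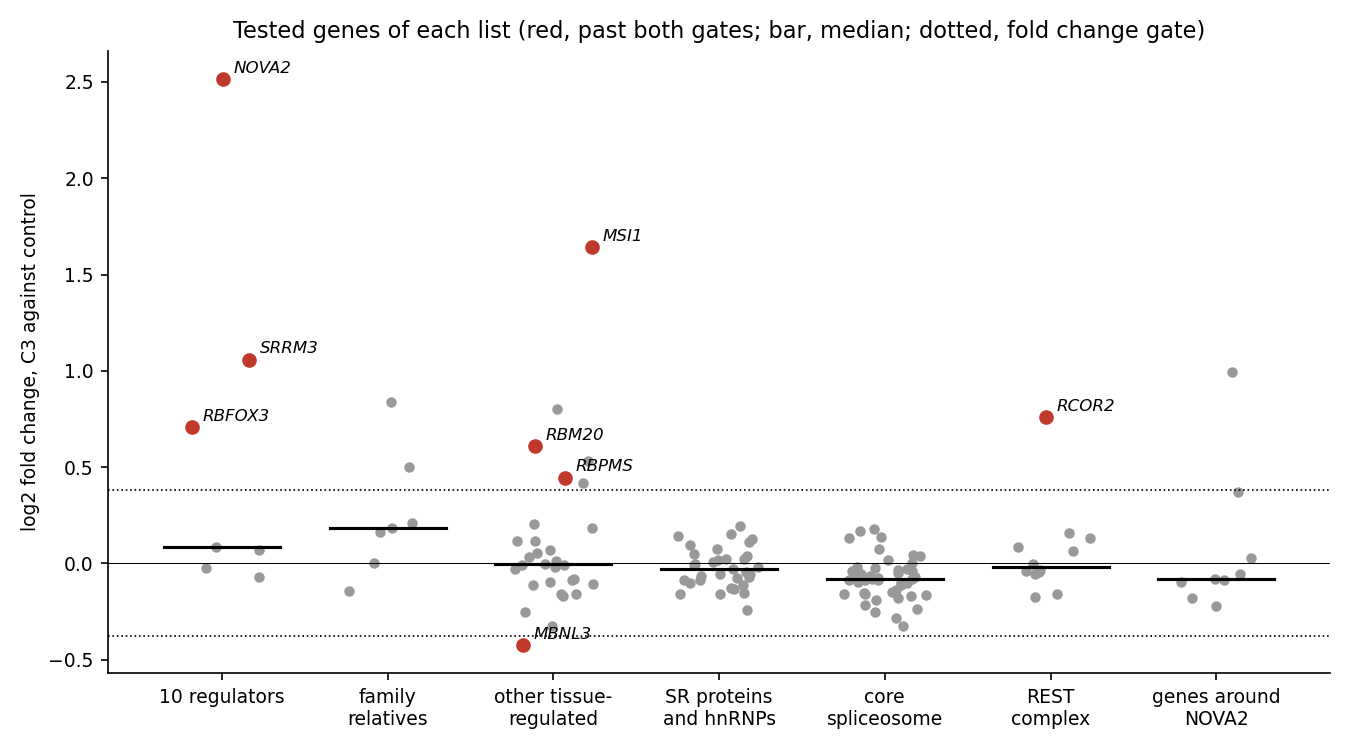
Log2 fold change (y axis) of every tested gene among the 10 regulators, their relatives, the other tissue-regulated factors, SR proteins and hnRNPs, core spliceosome, REST complex and genes around NOVA2 (x axis), with genes past both gates in red and named, the median as a bar and the fold change gate as dotted lines. The SR protein, hnRNP and core spliceosome genes lie between -0.32 and 0.19, while NOVA2 (2.52), MSI1 (1.64) and SRRM3 (1.06) stand highest among the genes plotted.

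REST is a repressor that keeps many neuronal genes, SRRM4 among them, silent outside the nervous system, and its partners carry histone deacetylases and demethylases to them. REST itself had 876, 864 and 893 normalised reads in control cells and 839, 1063 and 1032 after C3 treatment, with overlapping groups. Its log2 fold change of 0.16 ± 0.079 (SE) was not past the gates (edgeR adjusted p = 0.16). Of 12 listed genes of the REST complex, all were tested, 1 was higher and 0 were lower (5.05% and 1.47% of all tested genes), with the same counts by DESeq2 and limma-voom. At p below 0.05 before adjustment 2 were lower, as were 15.3% of all tested genes. The list's median log2 fold change was -0.018. The higher gene was RCOR2 (ENSG00000167771, chromosome 11), a corepressor of neural progenitors, with 162, 174 and 187.5 normalised reads in control cells and 322, 276 and 287 after C3 treatment. Its log2 fold change was 0.76 ± 0.11 (SE; edgeR adjusted p = 2.6e-05), and it stayed between 0.70 and 0.81 with each library left out. Its relatives RCOR1 and RCOR3 had -0.045 and -0.034, and the demethylase KDM1A had 0.084 ± 0.060 (SE).

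Marker genes were used to check the label of the cells and to see which other transcripts moved with the neuronal-type regulators. Of 12 megakaryocyte markers 10 were tested, with ITGA2B at 12902 ± 390 and GATA1 at 1818 ± 54.8 normalised reads in control cells (SD, n = 3). PF4 and GP1BB had 0 reads, and 52.2% and 100% of their exon bases are shared with other gene models of the same strand. The summed megakaryocyte markers were between 26752 and 28130 normalised reads in control libraries and between 25143 and 27441 in C3 libraries, with 0 genes higher and 1 (GP1BA, log2 fold change -0.49) lower, or 2 lower by DESeq2 and by limma-voom (5.05% of all tested genes were higher and 1.47% lower). At p below 0.05 before adjustment 2 were higher and 3 lower (16.8% and 15.3% of all tested genes). The higher ones were ITGB3 (0.34, adjusted p = 0.033, edgeR) and SELP (0.15, adjusted p = 0.095, edgeR), with the groups apart. ITGB3 shares 33.2% of its exon bases with gene models of the same strand. Besides GP1BA, the lower ones were NFE2 (-0.38) and VWF (-0.74). Of 12 neuron markers 6 were tested, 3 were higher and 0 lower (5.05% and 1.47% of all tested genes), and the sum was 6903 to 7106 in control and 9679 to 10292 in C3 libraries. That sum is nearly all NEFL, a neurofilament gene, at 6555 and 9320 normalised reads (mean of 3 libraries each). Its log2 fold change was 0.51 (adjusted p = 1.4e-06, edgeR). NEFM (1.04, adjusted p = 5.4e-05) and the glutamate transporter gene SLC17A7 (1.94, adjusted p = 6.2e-04) also rose by edgeR's test. SLC17A7 had few reads, with 7, 7 and 16 in control and 23, 58 and 54 in C3 libraries. It passed the count filter only through its C3 libraries, so its call carries little weight. NEFL and NEFM share 19.8% and 26.4% of their exon bases with genes of the other strand. SYT1, STMN2 and DCX had 0 reads in all 6 libraries, GAP43 had between 0 and 3 and SNAP25 between 10 and 20. TUBB3 was at 0 as well, with 21.3% of its exon bases shared with another model. SYP had 145 normalised reads in control and 149 in C3 libraries (means), with overlapping groups. GAD1 had 193 and 256, with the groups apart. Its log2 fold change was 0.40 (adjusted p = 0.014, edgeR), short of the p-value gate.

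Of 9 endothelial markers 8 were tested, 2 were higher (KDR and TEK, log2 fold changes of 0.65 and 0.59) and 0 lower, against 5.05% and 1.47% of all tested genes. By the p-value gate alone 4 were higher (6.51% of all tested genes), and 5 were at p below 0.05 before adjustment (16.8%). The sum was 12810 to 13383 in control and 14844 to 16244 in C3 libraries. PECAM1 (-0.072) and EGFL7 (0.13) had overlapping groups. CDH5 had a log2 fold change of 1.01 (adjusted p = 0.0315, edgeR) on 7 to 41 reads per library, and CLDN5 had between 0 and 8 reads. Of 8 epithelial markers, 3 were tested, and 0 were higher and 0 lower by edgeR, DESeq2 and limma-voom (5.05% and 1.47% of all tested genes by edgeR). At p below 0.05 before adjustment 1 was lower (15.3% of all tested genes). The sum was 2237 to 2538 in control and 1954 to 2173 in C3 libraries. KRT18 had 1712 normalised reads in control and 1357 in C3 libraries (means). Its log2 fold change was -0.34 (adjusted p = 0.00145, edgeR), short of the fold change gate. KRT8 had 509 and 489 and EPCAM 190 and 183, with overlapping groups. CDH1 had between 0 and 5 reads per library and GRHL2 and KRT19 had none. The part of any of these markers in the values of NOVA2, SRRM3 and RBFOX3 was not tested.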

How the data were processed

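RNA of 3 control and 3 C3 libraries of Meg-01 cells was compared. Per the methods and the submitters' processing notes, the authors used fastp for read filtering, STAR (2.6.1d) for alignment to GRCh38/hg38 and featureCounts (1.5.0-p3) for counting per gene. The deposited values are whole-number counts without normalization, and neither the annotation release nor the strand setting is given in the sources used here. Columns were matched to samples by group abbreviation and replicate number.

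Symbols, positions and exon lengths are from GENCODE 44 on GRCh38. Genes reaching 10 counts in 3 or more libraries were kept, TMM factors were computed, and the quasi-likelihood test of edgeR (version 4.0.16 under R 4.3.3) was run, adjusting p-values over all tested genes after Benjamini and Hochberg. The methods were tested on simulated data. Normalised read counts are counts per effective library size, rescaled to the mean of those sizes, and standard errors are the log2 fold change over the square root of F. Totals of 16159449 to 22821722 counts limit the precision of genes with few reads.

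The 10 genes and all lists were chosen with earlier results of these data known. Named were the 10 genes, their family relatives, REST, up to 3 called genes with the smallest p-values per list and direction, and the 5 genes most like NOVA2 (log2 CPM, prior count 2). Relatives of called genes, genes at the ends of a list, genes around NOVA2 and markers were named in addition, after their values were seen. Alternatives were DESeq2 (1.42.0), limma-voom (limma 3.58.1), no count filter, scaling with RLE factors or with library size alone, the replicate number as a block, and each library left out.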

Additional observations from a re-analysis of the deposited data

How the results depend on the processing

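NOVA2 and SRRM3 kept direction and size in all 12 alternatives, with log2 fold changes of 2.42 to 2.64 and 0.98 to 1.15, and RBFOX3 stayed between 0.64 and 0.83. With scaling by library size alone, under which the median log2 fold change of the tested genes was 0.076, genes called lower numbered 100 in place of 222, the other tissue-regulated factors had 0 called lower, PTBP1 and CELF1 had log2 fold changes of 0.0051 and 0.16, and the C3 levels of RBFOX2, PTBP1 and CELF1 were 6.34, 102.8 and 9.87 RPKM. That scaling gave 1025 higher genes, so 91.1% of its calls were higher against 77.4%. With each library left out in turn, 129 (without C3 replicate 3) to 340 (without C3 replicate 1) genes were lower and 516 to 766 higher, the other tissue-regulated factors had 1 to 3 called higher and 0 to 1 lower, and the core spliceosome 0 to 1 lower. The cause of these shifts was not tested. The replicate number did not pair the libraries, since deviations from the group means correlated at 0.021, -0.047 and 0.030 between libraries of the same number. With the replicate block, 909 genes were higher and 268 lower, and NOVA2, SRRM3 and RBFOX3 had log2 fold changes of 2.51, 1.065 and 0.70. Depth limits NOVA1, ELAVL3 and ESRP2, which could not be compared, and genes such as ELAVL4 with few reads.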
